A study of Mus musculus with 9 samples.

Results

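The 10 genes described here encode 9 chemokine receptors (Ccr2, Ccr4, Ccr6, Ccr8, Ccr9, Cxcr3, Cxcr4, Cxcr5 and Cxcr6) and the oxysterol receptor Gpr183. They were chosen by name, with earlier results of these data known, and all 10 were among the 13698 genes of the deposited table. The study sequenced RNA of regulatory T (Treg) cells, the Foxp3-expressing T cells that restrain immune responses, from 9 libraries of mouse spleen and lymph node on a C56Bl6/129 mix background. Deficient cells (n = 3) were sorted as YFP-positive and MHCII-negative from LRFffThpokff Foxp3 Cre-YFP/X females, in which Cre made from the Foxp3 locus deletes the floxed genes of LRF (Zbtb7a) and Thpok (Zbtb7b). Genetic controls (n = 3) were sorted through the same gate from WT Foxp3 Cre-YFP/X females, which carry the same Cre-YFP allele and keep both factors. Animal controls (n = 3) were YFP-negative, MHCII-negative, CD25-high cells of the same 3 mice as the deficient cells. These keep both factors and use the unmodified Foxp3 allele, so they differ from the deficient cells in Foxp3 allele and sorting gate as well. No age is given for the mice in the sources used here. Levels are CPM (counts per library, scaled to a common total), taken back from the authors' deposited log2 values, which were read as quantile-normalized log2 CPM from their sums and shared extremes. Values per library follow the mice 142114, 232614 and 432614 in deficient cells and animal controls, and the mice 124, 8619 and 8800 in genetic controls.

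Chemokine receptors are G protein-coupled receptors that steer cells along gradients of chemokines. The receptors that a T cell carries are known to set where it goes: CCR9 to the small intestine and thymus, CXCR5 to B cell follicles, and CCR4, CCR6, CCR8, CXCR3 and CXCR6 to inflamed or barrier tissues. GPR183, also called EBI2, reads oxysterols made by stromal cells and places lymphocytes within lymphoid organs. Resting Treg cells are known to circulate through lymphoid tissue with CCR7, while effector Treg cells gain receptors for inflamed tissue.

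The targeted genes and the sorted cells were checked first. Zbtb7b averaged 0.260 ± 0.110 CPM in deficient cells, 115 ± 30.3 CPM in genetic controls and 93.7 ± 15 CPM in animal controls (SD, n = 3 each). Zbtb7a averaged 89.5 ± 12.6 CPM in deficient cells, 90.3 ± 21.0 CPM in genetic controls and 112 ± 19.3 CPM in animal controls, so its reads did not show the deletion. The sources used here do not give its floxed part, and reads outside that part would not check the deletion. All 8 Treg markers looked for were measured. Their summed level was 3970 to 4450 CPM in deficient cells, 4380 to 5030 CPM in genetic controls and 6090 to 6450 CPM in animal controls. Il2rb (1460 to 1680 CPM) and Cd3e (1200 to 1310 CPM) were the largest parts in deficient cells. Cd4 lay at 329 to 381 CPM there, against 678 to 1030 and 820 to 988 CPM in genetic and animal controls. Il2ra lay at 416 to 551 CPM, against 584 to 788 and 738 to 800 CPM. Cd3e was above every genetic control (824 to 971 CPM). Foxp3 itself lay between 26.5 and 35.9 CPM in deficient cells and between 24.8 and 38.1 CPM in genetic controls, against 754 to 1000 CPM in animal controls; both YFP-positive groups carry the Cre-YFP allele of Foxp3. Other cell types carry some of these receptors, so their markers were summed per library. B cell markers (7 of 10 measured) summed to 54.8 to 71.9 CPM in deficient cells, 14.3 to 30.8 CPM in genetic controls and 58 to 118 CPM in animal controls. Cd79b was the largest part in deficient cells, at 45 to 67.1 CPM, against 12.6 to 22.5 and 39.6 to 74.3 CPM in genetic and animal controls. Cd79a was at 2.18 to 7.79 CPM, against 1.13 to 10.4 and 9.45 to 17.8 CPM. Cd22, Fcrla and Ebf1 reached 20.3, 11.7 and 7.74 CPM in animal controls, against at most 2.38 CPM in deficient cells. Cr2 reached 1.53 CPM in deficient cells and 0.785 CPM in animal controls. Markers of plasmacytoid dendritic cells, which are known to carry CCR9, summed to 254 to 293 CPM in deficient cells (6 of 10 measured). The sum was 198 to 297 CPM in genetic controls and 261 to 335 CPM in animal controls. Pacsin1 was the largest part in deficient cells, at 150 to 165 CPM, against 56.9 to 85.4 and 106 to 154 CPM in genetic and animal controls. Tcf4 was at 0.359 to 4.81 CPM in deficient cells, against 1.14 to 10 and 19.5 to 23.9 CPM. Ly6d was at most 0.156 CPM, against 1.17 to 5.96 and 2.21 to 8.42 CPM. Myeloid markers (7 of 11 measured) summed to 131 to 173 CPM in deficient cells, 96.7 to 512 CPM in genetic controls and 101 to 143 CPM in animal controls. Genetic control 8619 stood apart, with 512 CPM of myeloid markers against 173 CPM or less in every other library, and the calls that change without it are given beside the results. NK cell markers (3 of 8 measured) summed to 7.40 to 11.9 CPM in deficient cells, 4.81 to 16.8 CPM in genetic controls and 5.23 to 11 CPM in animal controls. Erythroid and platelet markers (6 of 8) summed to 0.833 to 40.8 CPM in deficient cells, 0.0917 to 76.1 CPM in genetic controls and 0.0817 to 0.465 CPM in animal controls, with the highest deficient value in library 232614. The part of such cells in the results was not tested. The read depth is unknown, because the deposited values are normalized.

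Ccr9 rose in the deficient cells, while Cxcr6 and Gpr183 fell, each against both controls. In the fit across all genes (limma, Benjamini-Hochberg FDR under 0.05), 3 of the 10 receptor genes were called against the genetic controls, where 0.869% of all genes were called. Against the animal controls the same 3 of 10 were called, where 0.891% of all genes were. In each comparison 1 receptor gene was called higher, with a background of 0.336% of genes against the genetic controls and 0.307% against the animal controls. In each comparison 2 were called lower, with a background of 0.533% against the genetic controls and 0.584% against the animal controls. All 3 were called against both controls in the same direction, as were 0.577% of all genes. The 10 genes were chosen with earlier results of these data known, so these shares describe them and do not test them as a group. The comparisons use the same 3 deficient libraries, so they are not independent of each other. In bulk RNA, fewer cells with a transcript and less transcript per cell cannot be told apart.

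**Figure D1:**
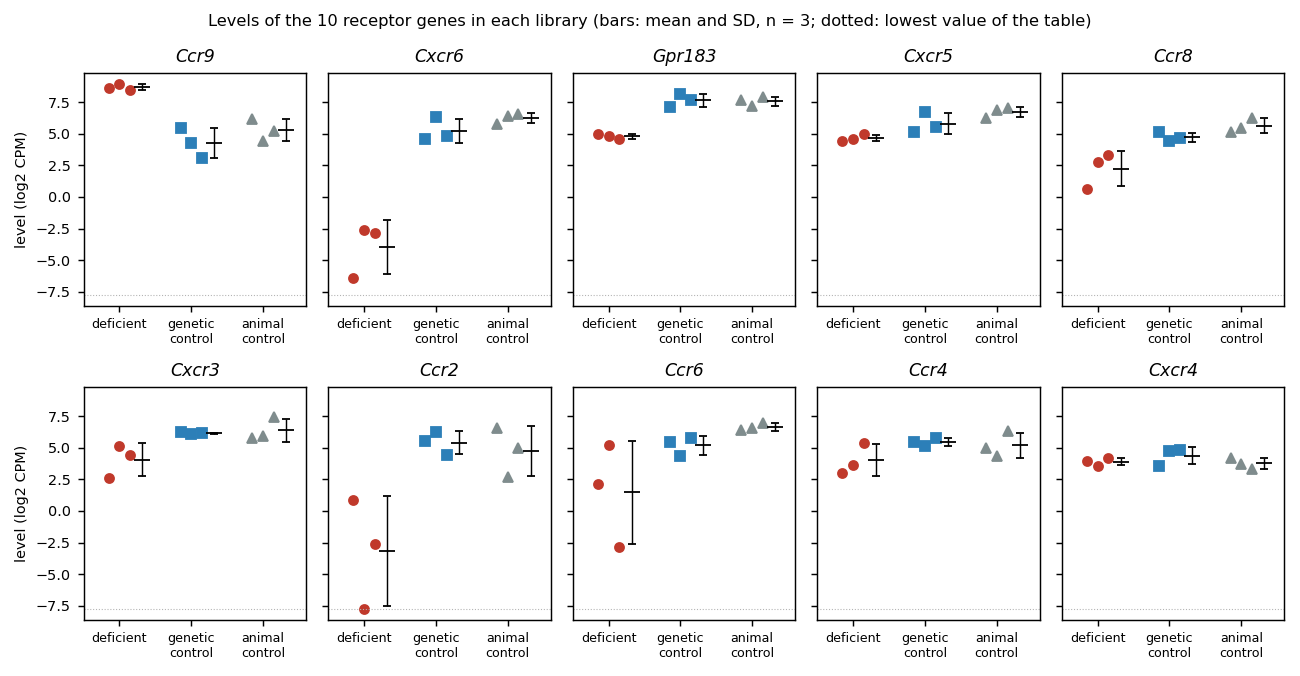
Level (log2 CPM) of each of the 10 receptor genes in every library: deficient cells (red circles), genetic controls (blue squares) and animal controls (grey triangles), with the mean and SD of 3 libraries beside each group. Ccr9 is above all control libraries in the 3 deficient libraries, and Cxcr6 and Gpr183 are below all of them; the dotted line marks the lowest value of the table, -7.77.

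Ccr9 encodes the receptor for CCL25, the chemokine of small intestine and thymus. It measured 393, 497 and 356 CPM in deficient cells, against 43.2, 19.0 and 8.47 CPM in genetic controls and 73.3, 21.5 and 38.1 CPM in animal controls. The lowest deficient library was above the highest control library, and the deficient libraries were the closest to one another on the log2 scale. The difference on the log2 scale was 4.43 ± 0.59 (SE) against genetic controls, a 21.5-fold rise (limma, adjusted p = 0.00977, n = 3 against 3). Against animal controls it was 3.39 ± 0.59, a 10.5-fold rise (limma, adjusted p = 0.0290). Within the mice, the deficient cells exceeded the animal control cells by 2.42, 4.53 and 3.23 log2 units in mice 142114, 232614 and 432614. The genetic and animal controls overlapped (log2 difference -1.04 ± 0.59, adjusted p = 0.805).

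The Ccr9 call against the animal controls depended on the fit. With the mouse as a fixed term in the 6 libraries of the 3 mice its adjusted p was 0.268 (limma), and without the variance trend it was 0.122. It was also lost when deficient library 142114 (adjusted p = 0.0886), 232614 (0.0966) or 432614 (0.0761), genetic control 8619 (0.0502), or animal control 232614 (0.102) or 432614 (0.0997) was left out. Against the genetic controls the call held without any 1 library, but not in the 6 libraries compared alone (adjusted p = 0.0562) or without both genetic control 8619 and animal control 232614 (0.0840). Among immature thymocyte markers, another set of cells known to carry CCR9, 4 of 8 were measured, and their sum was 593 to 607 CPM in deficient cells, 28.3 to 85 CPM in genetic controls and 65.8 to 125 CPM in animal controls. Of these, the CD8 coreceptor genes Cd8a and Cd8b1 made up 354 to 390 CPM and 195 to 237 CPM in the deficient cells. The higher sum there was therefore mainly theirs and does not describe the marker set as a whole. Rag1 was at 0.00457 CPM, the lowest value of the table, in all 3 deficient libraries. Dntt ranged from 0.0260 to 22.1 CPM there, against 0.00457 to 6.93 CPM in genetic and 0.67 to 2.2 CPM in animal controls. The part of other cells in the Ccr9 level was not tested.

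Cxcr6, the receptor for CXCL16 on effector and tissue-resident T cells, was nearly lost. It measured 0.0120, 0.167 and 0.136 CPM in deficient cells, against 23.6, 78.7 and 28.8 CPM in genetic controls and 56.2, 83.4 and 96.1 CPM in animal controls. In deficient library 142114 it shared its value with 282 other genes, with only the genes at the table's lowest value below it, and in the other deficient libraries 16.5% and 15.9% of genes lay below it. The log2 difference was -9.18 ± 1.07 against genetic controls (limma, adjusted p = 0.00468) and -10.21 ± 1.07 against animal controls (adjusted p = 0.00271). These sizes depend on the lowest values of the table, and no fold is given: on the log2(CPM + 1) scale the differences were -5.14 and -6.14, both still called (limma, adjusted p = 0.00335 and 0.000832). The call against genetic controls was lost in the 6 libraries compared alone (adjusted p = 0.0838) and without both genetic control 8619 and animal control 232614 (0.101). Against animal controls it was lost with the mouse as a fixed term (adjusted p = 0.244) and without those same libraries (0.0654), while the 3 mice gave differences of -12.19, -8.97 and -9.47.

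Gpr183 fell to 32.1, 28.2 and 24.2 CPM in deficient cells, against 136, 288 and 206 CPM in genetic controls and 206, 144 and 238 CPM in animal controls. The groups did not overlap, and both controls held like levels (log2 difference between them 0.07 ± 0.31, 95% interval -0.62 to 0.75). It was 7.17-fold lower than in genetic controls (log2 fold change -2.84 ± 0.31, SE, limma, adjusted p = 0.00323). Against animal controls it was 6.85-fold lower (log2 fold change -2.78 ± 0.31, adjusted p = 0.00333). Its call held in all 9 fits without 1 library in both comparisons, with adjusted p up to 0.0239 and 0.0231. With the mouse as a fixed term in 6 libraries it was lost (adjusted p = 0.170), although the deficient cells were lower by a like amount in each mouse, with differences of -2.68, -2.35 and -3.30. In that fit limma called 0 of 13698 genes, and 1395 had an unadjusted p under 0.05.

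**Figure D2:**
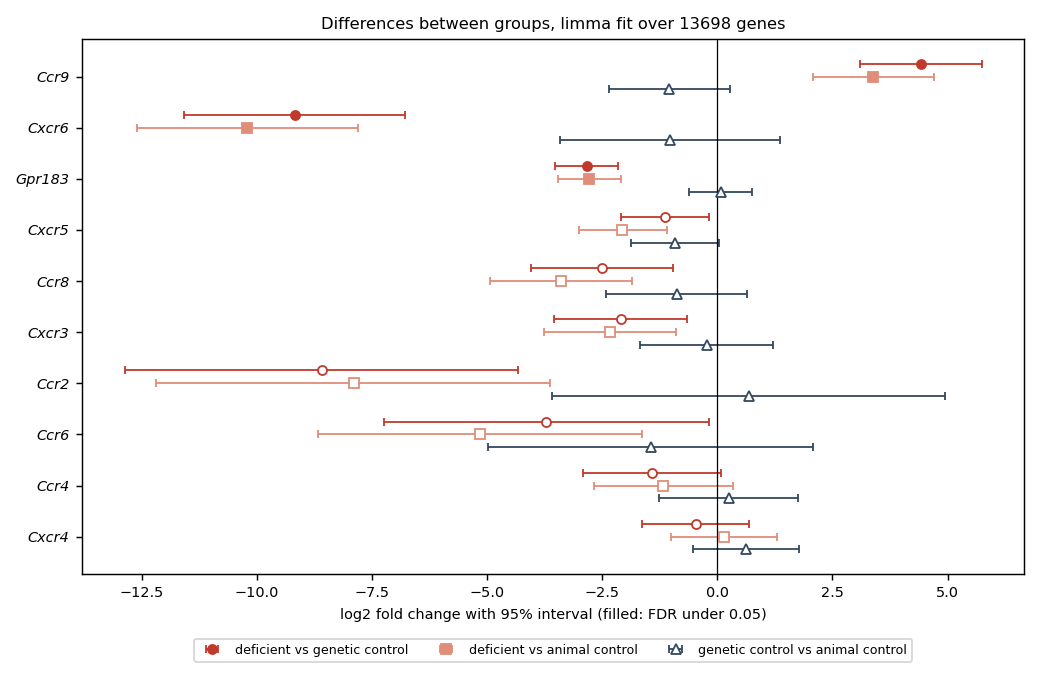
Log2 fold change with its 95% interval for each receptor gene in 3 comparisons (limma, 3 libraries against 3): deficient cells against genetic controls (circles), deficient cells against animal controls (squares), and genetic against animal controls (triangles). Filled symbols passed an FDR of 0.05; only Ccr9, Cxcr6 and Gpr183 have them.

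Cxcr5 and Ccr8 were lower in every deficient library without passing the test. Cxcr5, the receptor for CXCL13 that brings follicular T cells and B cells to follicles, measured 22.0, 24.2 and 31.3 CPM in deficient cells, against 35.3, 108 and 47.0 CPM in genetic controls and 75.7, 121 and 131 CPM in animal controls. Its log2 difference was -1.14 ± 0.43 against genetic controls (limma, adjusted p = 0.361) and -2.06 ± 0.43 against animal controls (adjusted p = 0.0680). Every deficient library was below every control, and the genetic and animal controls overlapped. Without genetic control 8619 the difference from animal controls passed (adjusted p = 0.0281), while that from genetic controls shrank to -0.67 (adjusted p = 0.642). Ccr8, a receptor for CCL1 and CCL8 known on effector Treg cells of tissue, measured 1.57, 6.70 and 9.85 CPM in deficient cells, against 35.1, 21.6 and 25.2 CPM in genetic controls and 35.6, 43.1 and 78.3 CPM in animal controls. Its log2 difference was -2.51 ± 0.69 against genetic controls (adjusted p = 0.170) and -3.39 ± 0.69 against animal controls (adjusted p = 0.0593). With the mouse as a random term the difference from animal controls passed (adjusted p = 0.0477), as it did without deficient library 432614 and on the log2(CPM + 1) scale (adjusted p = 0.0460).

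Cxcr3 and Ccr2 were also lower in every deficient library than in every control, without passing the test. Cxcr3, the receptor for the interferon-induced chemokines CXCL9, CXCL10 and CXCL11, measured 5.99, 35.7 and 21.9 CPM in deficient cells, against 74.1, 70.0 and 71.4 CPM in genetic controls and 55.3, 61.9 and 173 CPM in animal controls. The 3 genetic controls nearly coincided, while the deficient libraries spread over a log2 SD of 1.33. The log2 difference was -2.10 ± 0.64 (limma, adjusted p = 0.241) and -2.33 ± 0.64 (adjusted p = 0.167) against genetic and animal controls. Without deficient library 142114 the difference from genetic controls was -1.36 (adjusted p = 0.391). Ccr2, the receptor for CCL2, measured 1.79, 0.00457 and 0.167 CPM in deficient cells, against 45.7, 77.5 and 22.0 CPM in genetic controls and 94.3, 6.36 and 31.4 CPM in animal controls. Deficient library 232614 was at the table's lowest value. Its log2 difference of -8.59 ± 1.91 against genetic controls had an adjusted p of 0.0889, and that of -7.90 ± 1.91 against animal controls 0.112 (limma). These sizes depend on the lowest values of the table: on the log2(CPM + 1) scale they were -4.88 against genetic controls, which passed (adjusted p = 0.0479), and -4.25 against animal controls (adjusted p = 0.0765). Without deficient library 142114 both passed, with adjusted p of 0.0378 and 0.0392. Ccr2 belongs to a family of similar genes, and the sources used here do not give how reads were shared among them.

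Ccr6, the receptor for CCL20, varied widely among deficient libraries, with a log2 SD of 4.08. It measured 4.42, 36.8 and 0.136 CPM in deficient cells, against 42.9, 20.8 and 55.3 CPM in genetic controls and 84.5, 94.6 and 126 CPM in animal controls. The deficient libraries lay below every animal control, and library 232614 lay among the genetic controls. The log2 difference was -3.71 ± 1.57 against genetic controls (limma, adjusted p = 0.443) and -5.16 ± 1.57 against animal controls (adjusted p = 0.214). Without deficient library 232614 the differences were -5.57 from genetic controls (adjusted p = 0.114) and -7.02 from animal controls, which passed (adjusted p = 0.0485). Without deficient library 432614 they were -1.52 (adjusted p = 0.604) and -2.98 (adjusted p = 0.191), so the size of the Ccr6 difference rests on single deficient libraries. Every genetic control was also below every animal control.

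Ccr4 and Cxcr4 overlapped across the groups. Ccr4, the receptor for CCL17 and CCL22, measured 8, 12.7 and 42.6 CPM in deficient cells, against 43.5, 35.2 and 53.6 CPM in genetic controls and 31.2, 20.2 and 78.3 CPM in animal controls. Its log2 difference was -1.41 against genetic controls, with a 95% interval of -2.92 to 0.09, and -1.17 against animal controls, with an interval of -2.67 to 0.34. Cxcr4, the receptor for CXCL12 in marrow and lymphoid stroma, measured 15.7, 11.9 and 17.9 CPM in deficient cells, against 11.8, 27.4 and 27.7 CPM in genetic controls and 18.4, 13.3 and 10.1 CPM in animal controls. Its log2 difference was -0.47 (interval -1.63 to 0.68) against genetic controls and 0.15 (interval -1.01 to 1.30) against animal controls. These intervals leave room for changes of over 1 log2 unit.

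Over the 10 receptor genes, 6 lay below every genetic control in all deficient libraries, a placing that 7.28% of all genes had. Against the animal controls 7 did, where 8.1% of all genes had that placing. The 1 gene above every control library was Ccr9, with a background of 8.44% of genes against genetic controls and 7.85% against animal controls. An unadjusted p under 0.05 was found for 8 of 10 in each comparison, against 10.6% of all genes for the genetic and 11.9% for the animal controls. The median log2 difference of the 10 was -2.30 against genetic controls and -2.55 against animal controls, beside 0.036 and 0.037 over all 13698 genes. Because the 10 were chosen with earlier results of these data known, these shares and medians do not test a shift of the family. Between the controls, limma called 0 of the 10 (0.0365% of all genes were called), and 0 of the 10 had an unadjusted p under 0.05 (6.62% of all genes had). In that comparison 2 receptor genes, Ccr6 and Ccr8, were lower in every genetic control than in every animal control, a placing that 5.57% of all genes had.

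**Figure D3:**
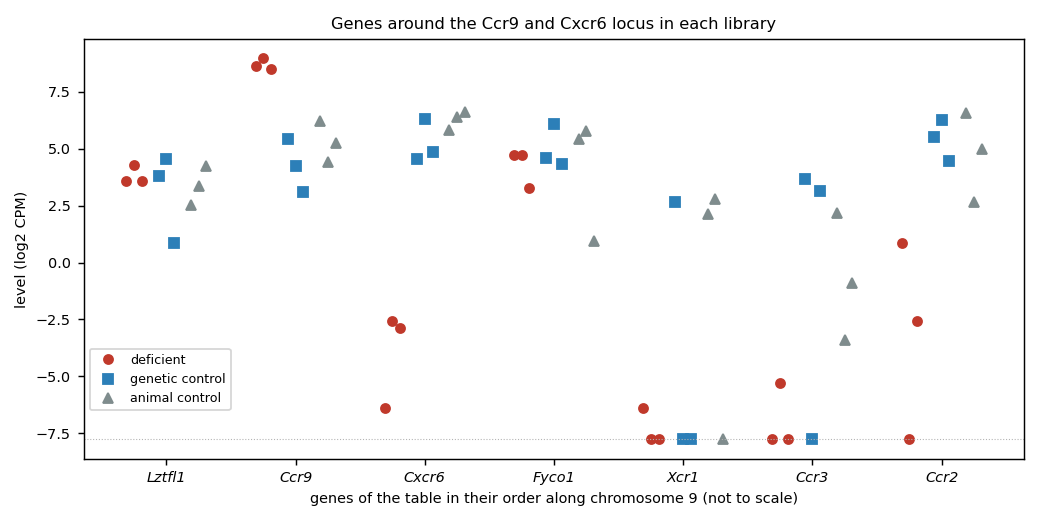
Level (log2 CPM) in every library of the 7 measured protein-coding genes from Lztfl1 to Ccr2, in their order along chromosome 9 and not to scale: deficient cells (red circles), genetic controls (blue squares) and animal controls (grey triangles). Ccr9 and Cxcr6, which are next to each other, move in opposite directions in the deficient cells, and Lztfl1 and Fyco1 overlap among the groups.

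Ccr9 and Cxcr6 are neighbours on mouse chromosome 9 and moved in opposite directions. In the GENCODE M21 annotation of GRCm38, Ccr9 spans 123678439 to 123784330 and Cxcr6 spans 123806475 to 123811760, both on the plus strand and 22.1 kb apart. Ccr2 lies further along at 124101950 to 124113557. Of the 9 protein-coding genes annotated between the start of Ccr9 and the end of Ccr2, 7 were in the table. Lztfl1, a protein of cilia that lies within the annotated Ccr9 span, averaged 14.5 ± 4.5 CPM in deficient cells, 13.0 ± 10.7 CPM in genetic controls and 11.7 ± 6.79 CPM in animal controls (SD, n = 3 each). Fyco1, an adaptor of autophagosome transport, averaged 20.9 ± 9.77 CPM in deficient cells, 37.1 ± 26.3 CPM in genetic controls and 33.4 ± 28.0 CPM in animal controls. Xcr1 and Ccr3, receptor genes that lie between Cxcr6 and Ccr2, were at most 0.0260 CPM in deficient cells. In the controls they ranged from 0.00457 CPM, the lowest value of the table, up to 12.6 CPM, and limma called neither of them against either control (adjusted p from 0.459 to 0.832).

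Several of these genes overlap others on the opposite strand. Cxcr6 lies inside Fyco1, and Gpr183 (chromosome 14, 121952551 to 121965195, minus strand) lies inside Ubac2, a ubiquitin-associated protein of the endoplasmic reticulum. The library kits named in the labels do not mark strand, so reads from a stretch shared by exons of both partners cannot be told apart. These overlaps are of whole gene spans, and whether exons overlap was not checked. In deficient cells Cxcr6 was at most 0.167 CPM, with Fyco1 at 9.63 to 26.6 CPM. Fyco1 did not pass the test (log2 difference -0.75 ± 1.15 against genetic and 0.19 ± 1.15 against animal controls, limma, adjusted p = 0.881 and 0.985). Ubac2 measured 289, 307 and 288 CPM in deficient cells, against 105, 232 and 274 CPM in genetic controls and 219, 252 and 235 CPM in animal controls. It lay above every control in the deficient cells, opposite in direction to Gpr183, and was not called (adjusted p = 0.491 and 0.757).

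The promoters of the 3 called genes are printed because these genes moved against both controls, with Cxcr6 and Gpr183 falling and Ccr9 rising. The windows come from RefSeq on GRCm38.p6 and run from 250 bases before to 50 bases after the transcript start. They are chr9:123766961-123767260 on the plus strand for Ccr9, chr9:123806227-123806526 on the plus strand for Cxcr6, and chr14:121965144-121965443 on the minus strand for Gpr183. The Ccr9 window lies inside the GENCODE span of Ccr9, which starts at 123678439, so it does not cover that start. Capitals mark matches, on either strand, to any of 5 motifs searched.
Ccr9: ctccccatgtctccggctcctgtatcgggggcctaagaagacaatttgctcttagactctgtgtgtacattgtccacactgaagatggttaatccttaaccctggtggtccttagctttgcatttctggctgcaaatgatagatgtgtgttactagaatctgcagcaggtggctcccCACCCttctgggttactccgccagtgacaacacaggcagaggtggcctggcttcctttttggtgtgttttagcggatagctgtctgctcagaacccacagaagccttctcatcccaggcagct
Cxcr6: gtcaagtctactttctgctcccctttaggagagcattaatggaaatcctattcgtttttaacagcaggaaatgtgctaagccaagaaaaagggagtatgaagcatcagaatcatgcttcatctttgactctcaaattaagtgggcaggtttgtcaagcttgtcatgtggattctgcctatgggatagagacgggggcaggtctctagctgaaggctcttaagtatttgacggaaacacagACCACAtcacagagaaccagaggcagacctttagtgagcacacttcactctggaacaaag
Gpr183: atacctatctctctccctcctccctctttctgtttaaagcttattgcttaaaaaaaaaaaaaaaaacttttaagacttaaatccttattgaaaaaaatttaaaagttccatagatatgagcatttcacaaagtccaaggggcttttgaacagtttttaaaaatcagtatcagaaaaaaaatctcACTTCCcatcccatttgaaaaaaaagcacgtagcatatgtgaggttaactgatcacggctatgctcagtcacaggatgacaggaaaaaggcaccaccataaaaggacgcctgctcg

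The motifs searched were TGTGGT, the core of RUNX sites, GACCC, the core known for human LRF, CACCC, the box of KLF factors, GGAAGT, an ETS core, and TATAAA, the TATA box. The Ccr9 window held 1 match, a CACCC box 73 bases before the start, and 57.5% of the 32851 windows of this table hold one. The Cxcr6 window held the RUNX core read on the minus strand, ACCACA, at 10 bases before the start, as do 16.8% of windows in some position. The Gpr183 window held an ETS core on the minus strand, ACTTCC, at 66 bases before the start, as do 23.8% of windows. None of the 3 windows held GACCC, which is found in 43.9% of windows, or TATAAA, found in 13.6%. The G and C share was 51.3% in Ccr9, 44.3% in Cxcr6 and 35.3% in Gpr183, against a median of 52.7% over all windows. A match describes letters only; no binding was measured here. A window was present for 9 of the 10 genes, all but Cxcr5.

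The other chemokine receptors did not pass the test in either comparison. Of 15 listed, 8 were measured and 0 were called higher or lower. Over all genes, 0.869% were called against genetic and 0.891% against animal controls, so 0 calls in so short a list say little. Their median log2 difference was -4.53 against genetic controls, with 5 of 8 negative, and -5.62 against animal controls, with 6 of 8 negative, beside 0.036 and 0.037 over all genes. These medians depend on the lowest values of the table, since Ccr3, Ccr10, Cx3cr1 and Xcr1 were at most 0.0260 CPM in every deficient library. Ccr7, the receptor that brings T cells into lymph nodes, lay above every control in the deficient cells: 800, 824 and 815 CPM, against 453, 629 and 646 CPM in genetic controls and 417, 597 and 505 CPM in animal controls. Its log2 difference was 0.52 (limma, adjusted p = 0.251) and 0.70 (adjusted p = 0.0988) against genetic and animal controls. Ccrl2, an atypical receptor, averaged 3.20 ± 5.51 CPM in deficient cells, 15.3 ± 7.23 CPM in genetic controls and 13.3 ± 14.1 CPM in animal controls, with overlap.

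Among 36 chemokine ligand genes, 10 were measured, beside 0.869% of all genes called against genetic and 0.891% against animal controls. Xcl1, the ligand of XCR1, was called higher against genetic controls (3.41 ± 2.55 CPM in deficient cells and 0.00457 ± 0 CPM in genetic controls, SD, n = 3 each, limma, adjusted p = 0.0234), but animal controls held 3.91 ± 1.17 CPM. Ccl3 was at the lowest value in every deficient and every genetic control library, against 3.70 ± 3.54 CPM in animal controls. It was called lower in deficient cells than in animal controls (limma, adjusted p = 0.0420). The Xcl1 and Ccl3 calls depend on the lowest value of the table, where a whole group lay without spread, and both genes were low in every library. Cxcl10, a ligand of CXCR3, averaged 0.0776 ± 0.120 CPM in deficient cells, 4.03 ± 3.02 CPM in genetic controls and 4.12 ± 1.12 CPM in animal controls, with adjusted p of 0.113 and 0.0930. Of 5 enzymes that make or degrade oxysterols, the ligands of GPR183, only Hsd3b7 was measured. It was at the lowest value in all deficient libraries, against 1.88 ± 3.23 CPM in genetic controls and 1.06 ± 1.31 CPM in animal controls, and was not called.

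Other G protein-coupled receptors of lymphocytes gave 0 called higher and 1 lower of 25 measured against genetic controls. Against animal controls 1 was called higher and 0 lower. Over all genes, 0.336% were called higher and 0.533% lower against genetic controls, and 0.307% higher and 0.584% lower against animal controls. Ptger2, a prostaglandin E2 receptor, averaged 9.43 ± 5.22 CPM in deficient cells, 63.4 ± 22.8 CPM in genetic controls and 54.7 ± 27.0 CPM in animal controls (SD, n = 3 each), and fell against genetic controls (log2 difference -2.85, limma, adjusted p = 0.0454). Against animal controls its adjusted p was 0.0683. Gpr56 (Adgrg1), an adhesion receptor of cytotoxic lymphocytes, averaged 82.8 ± 33.0 CPM in deficient cells, 12.5 ± 8.93 CPM in genetic controls and 8.47 ± 2.04 CPM in animal controls, and rose against animal controls (3.25, adjusted p = 0.0289). Against genetic controls its adjusted p was 0.0537. S1pr1, the receptor for lymph node exit, averaged 819 ± 90.7 CPM in deficient cells, 788 ± 37.0 CPM in genetic controls and 596 ± 38.5 CPM in animal controls, with an adjusted p of 0.0887 against the last. The list's median log2 difference was -0.07 against genetic and -0.23 against animal controls.

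The signalling genes shared by these receptors were not called. Of 49 listed G protein subunits, receptor kinases, arrestins, RGS regulators and small GTPase genes, 44 were measured, with 0 called in either direction against either control and a median log2 difference of -0.04 in both. The share called over all genes was 0.869% against genetic and 0.891% against animal controls, so 0 calls among 44 genes say little. Rgs16, which shortens G protein signals, averaged 3.23 ± 5.56 CPM in deficient cells, 13.6 ± 4 CPM in genetic controls and 26.0 ± 10.2 CPM in animal controls, with adjusted p of 0.266 and 0.176 (limma). Of 14 homing partners, all measured, 1 was called, beside those same shares of all genes. It was Itgb7, the integrin chain that binds the gut address molecule MAdCAM-1. It averaged 1330 ± 172 CPM in deficient cells, 2280 ± 150 CPM in genetic controls and 2500 ± 265 CPM in animal controls, and fell against both (log2 difference -0.78 and -0.91, adjusted p = 0.0107 and 0.00390). Itga4, which pairs with Itgb7 in gut homing, averaged 111 ± 19.9 CPM in deficient cells, 229 ± 54.0 CPM in genetic controls and 170 ± 9.52 CPM in animal controls, with an adjusted p of 0.0715 against genetic controls. Itgae, which pairs with Itgb7 to bind E-cadherin, averaged 481 ± 47.1 CPM in deficient cells, 212 ± 55.0 CPM in genetic controls and 249 ± 111 CPM in animal controls, with adjusted p of 0.184 and 0.240. Fut7, which makes selectin ligands, averaged 0.0237 ± 0.0331 CPM in deficient cells, 12.4 ± 8.79 CPM in genetic controls and 7.12 ± 9.93 CPM in animal controls, with an adjusted p of 0.109 against genetic controls. Thus Ccr9 rose and Itgb7 fell against both controls, although both are known for homing to the gut.

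Genes whose log2 levels over the 9 libraries were most like a receptor gene were ranked by Pearson's r among 7261 genes. These are the 7550 genes with a mean log2 level at or above that of 10 CPM, less predicted genes, unnamed clones and antigen receptor segments. The r values are a description with no test, since all genes share the same libraries and groups. For Ccr9 they were Arl3 (r = 0.984), a small GTPase, Pik3cd (0.944), a lymphocyte PI3 kinase, and Hnrnpab (0.930), an RNA-binding protein. For Cxcr6 they were Ass1 (r = 0.997), an enzyme of arginine synthesis, Smpdl3a (0.982), a phosphodiesterase, and Nt5e (0.977), which encodes CD73. For Gpr183 they were Lgals1 (r = 0.986), which encodes galectin-1, the deleted gene Zbtb7b (0.973), and Cd82 (0.969), a tetraspanin. For Ccr8 the nearest was Arhgef3 (r = 0.990), for Ccr2 it was Batf (0.980), a transcription factor of effector Treg cells, and for Cxcr5 it was Sod1 (0.948). Cxcr3 had Gbp5 (r = 0.961), an interferon-induced GTPase, as its nearest gene, and Ccr8 was also among its nearest (0.946). Ccr4 had H2-Q7 (0.969), Ccr6 had Sos2 (0.961) and Cxcr4 had Gna13 (0.961).

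**Figure D4:**
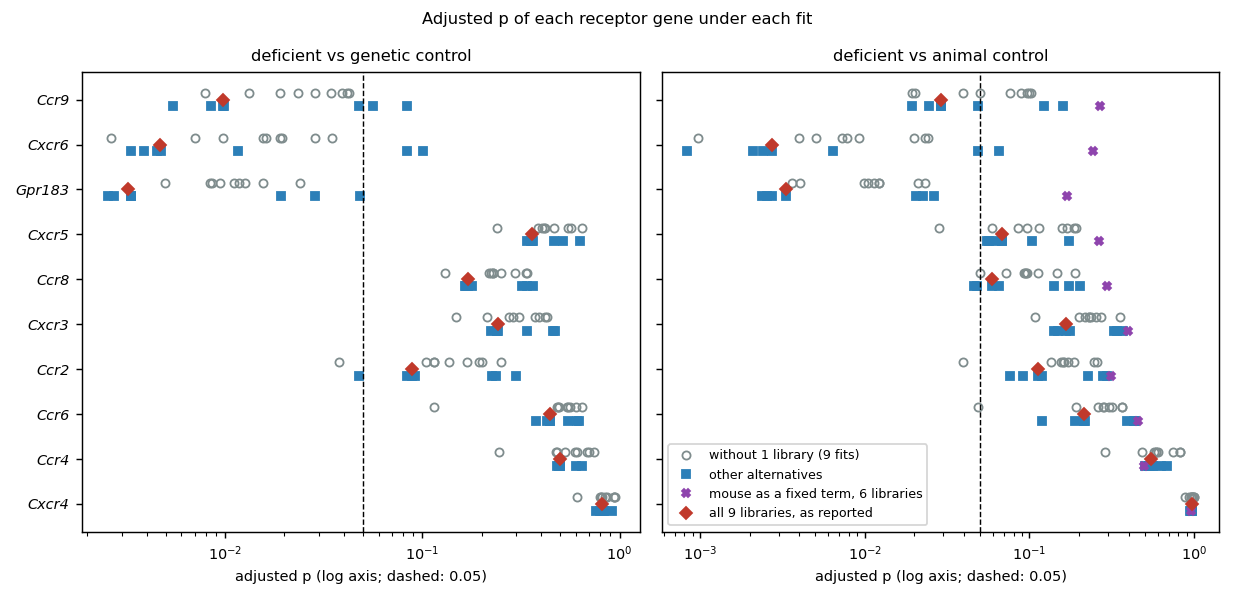
Adjusted p (log axis) of each receptor gene in the fit reported (red diamonds), without 1 library at a time (open circles), under the other alternatives (blue squares) and with the mouse as a fixed term (purple crosses, animal controls only); the dashed line is 0.05. Gpr183 is left of the line in all fits but the last kind, while Ccr9 against animal controls lies on both sides.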

How the data were processed

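Per the labels' protocols, RNA was purified on RNeasy columns, and the 9 libraries were made by SMARTer cDNA synthesis followed by Nextera XT tagmentation. The submitters' processing notes name bcl2fastq 1.8.4, STAR 2.4.0h, mm10 and limma; the sources used here do not give the counting tool, annotation, strand setting, filters or normalization. The authors deposited log2 values: the linear values sum to 999252 to 999256 per library and all libraries share the lowest value (-7.77) and the highest (13.42), so they were read as log2 CPM, quantile-normalized. Each library had 8% to 11.4% of its genes at the shared minimum. Depth is unknown, so no counting interval is given.

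From 13702 rows, 4 rows that repeated another exactly were dropped. A single limma-trend model (limma 3.58.1, R 4.3.3) of group means over all 9 libraries was fitted to 13698 genes with no filter and no pseudocount, with p-values two-sided and adjusted over the whole table by Benjamini-Hochberg. With 3 against 3, an exact permutation test of 1 gene cannot go below p = 0.1 and was not used. The genes named are the 10 receptor genes, called members of 6 lists (or the 4 lowest by p) and the 3 genes most like each receptor gene; Ubac2, the chromosome 9 neighbours and the promoter motifs were chosen after values were seen. The members and lists were chosen with earlier results of these data known. Older symbols were matched through RefSeq synonyms. Within each group the replicates are libraries of separate mice. The p-values of this fit rest on the spread of libraries within groups, pooled over the groups and adjusted towards that of other genes. They do not use the pairing by mouse. No preparation batch is named in the labels.

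Deficient cells and animal controls carry the same mouse numbers and come from the same mice, per the series' design text, so they are paired. Deviations from group means of libraries of 1 mouse correlated at 0.0483, 0.0202 and 0.0170 across 7550 genes (different mice: -0.0304 to 0.00803). The mouse was tried as a random term (consensus correlation 0.0493) and as a fixed term in 6 libraries. Alternatives also covered the trend, a filter at 1 CPM, log2(CPM + 1), centring on genes of at least 10 CPM, the libraries fitted and each library left out. Figures used Python 3.11.15 and matplotlib 3.10.9.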

Additional observations from a re-analysis of the deposited data

How the results depend on the processing

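Over all refits of the 10 receptor genes in 3 comparisons, 457 kept direction and side of the threshold, 16 lost a call, 8 gained one and 9 turned direction. Unless stated, the cause was not tested. Without the variance trend, Ccr9 against animal controls (log2 fold change 3.393) lost its call, and 32 genes were called between the controls, against 5. On log2(CPM + 1), Ccr2 against genetic controls (-4.885, adjusted p = 0.0479) and Ccr8 against animal controls (-3.073, adjusted p = 0.0460) gained one. With the replicate block as a random term, Ccr8 against animal controls (-3.392) gained one. With the replicate block as a fixed term in the 6 paired libraries, 0 genes and 0 receptor genes were called against animal controls (limma). At an unadjusted p under 0.05 there were 1395 and 8. Ccr9 (3.393), Cxcr6 (-10.21) and Gpr183 (-2.777) lost their calls. That fit has fewer libraries and also fits the mouse, and the same 6 libraries without the mouse gave 52 genes and 3 receptor genes called. In the 6 libraries compared alone, 22 genes were called against genetic controls, 52 against animal controls and 3 between controls. Against genetic controls 1 receptor gene, Gpr183, was then called, and Ccr9 (4.429) and Cxcr6 (-9.184) were not. Without both genetic control 8619 and animal control 232614, 21, 27 and 1 genes were called in those comparisons, with 1 receptor gene against either control. Ccr9 (4.425 against genetic and 2.96 against animal controls) and Cxcr6 (-8.654 and -10.15) were then not called, and between the controls Ccr2 (-0.7787), Ccr4 (-0.03269) and Gpr183 (-0.4016) turned direction.

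Leaving out 1 library at a time gave 48 to 93 genes called against genetic controls, 58 to 115 against animal controls and 4 to 10 between controls, with 3 to 4, 2 to 3 and 0 to 0 receptor genes. Against genetic controls the log2 fold change ranged from 3.843 to 5.019 for Ccr9, -9.865 to -7.97 for Cxcr6, -3.123 to -2.582 for Gpr183, -10.59 to -6.288 for Ccr2, -5.566 to -1.524 for Ccr6 and -1.481 to -0.6731 for Cxcr5. Against animal controls it ranged from 2.96 to 3.845 for Ccr9, -10.89 to -8.994 for Cxcr6, -2.983 to -2.621 for Gpr183, -2.301 to -1.906 for Cxcr5, -9.91 to -5.604 for Ccr2, -7.016 to -2.975 for Ccr6, -3.926 to -2.603 for Ccr8 and -0.06255 to 0.3691 for Cxcr4. Cxcr5 was called there without genetic control 8619 (adjusted p = 0.0281). Between the controls it ranged from -0.3488 to 1.597 for Ccr2, -0.1851 to 0.7937 for Ccr4, -0.1953 to 0.3462 for Gpr183 and -0.5274 to 0.2958 for Cxcr3. Where a group is left with fewer libraries, they are assumed to vary like the other groups. Depth is unknown, so low values cannot be told from values not detected.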
